A study of Mus musculus with 3 samples.

Results

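The immunoglobulin light chain loci of the mouse, kappa (Igk) on chromosome 6 and lambda (Igl) on chromosome 16, were examined in ATAC-seq peak lists of transformed B-cell precursors. The members were every gene of the GENCODE mouse release M21 annotation (GRCm38, the assembly also called mm10) with type IG_V, IG_J or IG_C and a symbol starting Igkv, Igkj, Igkc, Iglv, Iglj or Iglc. They numbered 118 of 55450 annotated genes. Kappa had 100 variable (V), 5 joining (J) and 1 constant (C) segment between chr6:67555497-70726966, and lambda had 3 V, 5 J and 4 C segments between chr16:19061618-19260859. With 100 kb added on either side, all peaks of 4 lists were merged where they shared at least 1 bp. This gave 136 regions at kappa and 15 at lambda, 151 of the 50965 regions of the genome.

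ATAC-seq marks DNA that a transposase can reach. The lines grew from bone marrow of C57BL/6 mice after retroviral transduction with BCR-ABL(p185) on a vector that also carries GFP, so all groups carried the oncogene. The donor mice were homozygous for wildtype Cdk6 (WT, Cdk6+/+) or for Cdk6 K43M, which has no kinase activity (K43M, Cdk6 KM/KM), and each of the 2 genotypes had 2 lines with 1 list each. For WT replicate 2, K43M replicate 1 and K43M replicate 2 the genotype comes from the sample labels. One further list has no sample record. It is called WT unnumbered, because the design text of the series counts 2 lines per genotype and a wildtype line analysed again. Where 4 values follow each other, they are in the order WT unnumbered, WT replicate 2, K43M replicate 1 and K43M replicate 2. The labels call the cells pre/pro-B-cells, and the sources do not say whether the light chain loci of these lines are rearranged, which was not tested here.

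A light chain gene is assembled during B-cell development, when the RAG1 and RAG2 proteins cut next to a V and a J segment and the ends are joined. The cut is directed by recombination signal sequences (RSS), each a heptamer and a nonamer held apart by a spacer, which flank the segments. Each V segment has its own promoter, in which an octamer bound by the OCT factors (Pou2f1, Pou2f2) with their coactivator OBF-1 (Pou2af1) lies upstream of the start. Kappa is controlled by an enhancer in the intron between J and C, where the kappaB site was first described, by a 3′ enhancer with a composite site for PU.1 and IRF4, and by a distal enhancer further downstream. The elements called Cer and Sis, between the last V segment and the first J, bind CTCF and shape which V segments are used. Lambda carries its enhancers downstream of its constant segments.

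The sequences at the summits of the enhancer-side regions are shown because they carry the comparison at both loci. Each runs from 100 bp before to 100 bp after the summit on the plus strand of GRCm38, with capitals for the kappaB letters GGGACTTTC, the E-box letters CAGGTG and the composite ETS-IRF letters GGAANNGAA, on either strand.
Igk, Cer and Sis interval (chr6:70709425-70709625, plus strand): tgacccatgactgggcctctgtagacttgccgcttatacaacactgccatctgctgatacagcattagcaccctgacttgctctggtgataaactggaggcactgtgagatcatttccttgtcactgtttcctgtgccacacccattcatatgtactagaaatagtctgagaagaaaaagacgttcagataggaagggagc
Igk, intron between J and C (chr6:70725659-70725859, plus strand): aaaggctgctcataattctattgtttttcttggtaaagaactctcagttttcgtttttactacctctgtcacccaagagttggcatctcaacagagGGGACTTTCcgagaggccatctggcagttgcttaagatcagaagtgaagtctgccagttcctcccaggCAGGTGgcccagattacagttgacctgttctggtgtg
Igk, 3′ enhancer interval (chr6:70735590-70735790, plus strand): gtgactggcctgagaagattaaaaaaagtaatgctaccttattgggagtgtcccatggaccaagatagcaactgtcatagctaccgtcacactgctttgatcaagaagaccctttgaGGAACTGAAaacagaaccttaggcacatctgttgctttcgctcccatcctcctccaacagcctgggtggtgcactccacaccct
Igl, interval beyond Iglc1 (chr16:19052899-19053099, plus strand): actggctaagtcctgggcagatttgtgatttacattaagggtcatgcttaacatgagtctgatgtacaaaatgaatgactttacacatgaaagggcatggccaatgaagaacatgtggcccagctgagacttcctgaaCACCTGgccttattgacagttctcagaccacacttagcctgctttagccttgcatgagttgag
Igl, interval beyond Iglc4 (chr16:19179342-19179542, plus strand): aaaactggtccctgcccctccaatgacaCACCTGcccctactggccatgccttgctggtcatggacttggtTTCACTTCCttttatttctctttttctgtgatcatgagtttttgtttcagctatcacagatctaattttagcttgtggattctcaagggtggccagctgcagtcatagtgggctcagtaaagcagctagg
The kappaB letters stood in the J to C intron, together with an E-box. The 3′ enhancer interval held the composite letters, as did the lambda region beyond Iglc4, and none of these letters stood in the window of Cer and Sis. A CTCF pattern searched in the same way was also not found in that window. Over all regions of the genome 7.86% held the composite letters and 16.2% the E-box. A match is a description of the letters and not a measured binding site.

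The promoters of 6 V segments are shown next, since the octamer is what most open V starts shared. Each runs in the direction of its segment from 150 bp before to 50 bp after the annotated start, with capitals for the octamer ATTTGCAT and the E-box CAGGTG on either strand.
Igkv9-129 (chr6:67839643-67839842, plus strand): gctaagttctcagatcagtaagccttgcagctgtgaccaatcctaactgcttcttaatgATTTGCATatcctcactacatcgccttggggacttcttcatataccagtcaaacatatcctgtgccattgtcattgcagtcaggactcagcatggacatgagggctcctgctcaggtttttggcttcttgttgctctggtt
Igkv9-124 (chr6:67942491-67942690, minus strand): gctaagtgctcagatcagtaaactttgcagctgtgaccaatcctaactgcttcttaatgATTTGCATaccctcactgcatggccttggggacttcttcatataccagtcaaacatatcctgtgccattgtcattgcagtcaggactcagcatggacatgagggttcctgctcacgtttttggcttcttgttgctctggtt
Igkv2-112 (chr6:68219831-68220030, plus strand): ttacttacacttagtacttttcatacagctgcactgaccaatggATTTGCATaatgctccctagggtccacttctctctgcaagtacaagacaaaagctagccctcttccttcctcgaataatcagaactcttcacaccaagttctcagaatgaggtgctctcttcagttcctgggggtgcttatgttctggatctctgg
Igkv15-103 (chr6:68437290-68437489, plus strand): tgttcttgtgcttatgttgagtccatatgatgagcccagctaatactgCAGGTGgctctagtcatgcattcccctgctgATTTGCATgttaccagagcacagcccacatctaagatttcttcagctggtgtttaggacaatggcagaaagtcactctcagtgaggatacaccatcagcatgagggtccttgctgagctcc
Igkv3-12 (chr6:70518100-70518299, plus strand): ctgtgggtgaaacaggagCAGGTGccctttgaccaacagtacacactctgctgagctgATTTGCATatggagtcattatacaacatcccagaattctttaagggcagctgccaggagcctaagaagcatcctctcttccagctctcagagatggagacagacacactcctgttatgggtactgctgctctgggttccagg
Igkv6-17 (chr6:70371289-70371488, plus strand): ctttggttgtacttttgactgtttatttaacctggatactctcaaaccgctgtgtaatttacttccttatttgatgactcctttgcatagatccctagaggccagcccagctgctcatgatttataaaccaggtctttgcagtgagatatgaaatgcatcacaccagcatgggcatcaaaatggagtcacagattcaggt
The first 4 had a promoter peak in all 4 lists, Igkv3-12 only in both K43M lists, and Igkv6-17 only in both wildtype lists. No exact octamer was found in the window of Igkv6-17.

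The ends of 3 segments of the Igkv4 family are shown because the family was open there and not at its starts. Each runs from 30 bp before to 170 bp after the last base of the segment, with capitals for the RSS heptamer CACAGTG, the RSS nonamer ACAAAAACC and the octamer ATTTGCAT.
Igkv4-72 (chr6:69226684-69226883, minus strand): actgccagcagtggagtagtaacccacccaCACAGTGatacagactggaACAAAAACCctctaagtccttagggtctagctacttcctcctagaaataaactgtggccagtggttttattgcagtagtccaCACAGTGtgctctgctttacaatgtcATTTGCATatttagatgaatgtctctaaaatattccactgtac
Igkv4-58 (chr6:69500084-69500283, minus strand): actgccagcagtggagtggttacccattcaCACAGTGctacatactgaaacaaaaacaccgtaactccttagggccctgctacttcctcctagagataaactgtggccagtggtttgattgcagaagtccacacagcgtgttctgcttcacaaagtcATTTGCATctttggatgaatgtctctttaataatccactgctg
Igkv4-51 (chr6:69681236-69681435, minus strand): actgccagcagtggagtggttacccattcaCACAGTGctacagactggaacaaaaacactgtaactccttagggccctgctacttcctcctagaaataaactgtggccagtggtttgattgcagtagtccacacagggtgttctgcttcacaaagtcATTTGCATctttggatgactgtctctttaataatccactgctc
In each, a heptamer followed the last base directly and an octamer stood 128 bp after the end.

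The 4 lists held between 33038 and 39038 peaks. They give no read totals, but the recovered genome-wide background shows their relative depth. It was 65.3, 56.7, 55.1 and 48.4 read ends per 10 kb. Depth was thus lower in both K43M lists than in both wildtype lists, and its part in any genotype difference was not tested. Peaks were given as fold enrichment, the height of the read pileup at the summit over the local background, with 1 added to each. Where the background is low, the added 1 lowers this ratio more in a list of lower depth. Values listed for single regions are not centred between lists. Where 2 lists lie apart from the other 2, a two-sided exact permutation test gives p = 0.33 at best. The share of all regions with such a separation was not counted, so it is given as a description only. At the genome-wide background the lowest fold enrichment called was between 3.28 and 3.56, and lower values were called where the local background was higher. A missing peak shows that a site was not called and not that it was closed. Promoter peaks were present in all 4 lists for 7 of 8 B-lineage markers, with Cd79b missing from K43M replicate 2. Among other lineages, 1 of 4 T-cell markers (Lck) and none of 4 myeloid, 3 erythroid and 3 other tissue markers had one. Reads that matched several places had been removed, which matters here because V segments resemble each other. Of the 31-base words in the genome 80.5% occurred once, against 56.6% at kappa and 61.0% at lambda, so part of both loci was harder to see. This share is a guide and not the share that reads can reach. A peak was called even at chr6:67699128-67699328, where 4.98% of the words occurred once.

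The first question was whether the genotypes differed in how much of each locus was open. At kappa there were 84 peaks in WT unnumbered and 87 in WT replicate 2, against 74 in K43M replicate 1 and 79 in K43M replicate 2. Both K43M lists were below both wildtype lists, and the K43M mean was lower by 9 peaks (difference -9, two-sided exact permutation test, p = 0.33, the smallest that 2 against 2 lists allow). When every list was cut to its 33038 peaks of lowest q-value the kappa counts were 84, 82, 56 and 72 (difference -19, exact permutation test, p = 0.33). This cut took most from K43M replicate 1, which held the most peaks (39038) and had the lowest kappa count after it. With peaks of −log10 q of at least 5 the kappa counts were 77, 67, 64 and 63 (difference -8.5, exact permutation test, p = 0.33). These last counts fell in the same order as the depth of the lists, and depth and genotype cannot be told apart here. At lambda the counts were 11, 13, 13 and 13 in the same order, and the groups overlapped (difference 1, exact permutation test, p = 1). With peaks of −log10 q of at least 5 they were 8, 10, 13 and 13, and no longer overlapped (difference 4, exact permutation test, p = 0.33). In this bulk assay fewer cells with an open site and less opening per cell cannot be told apart. Each list is 1 line and nothing says whether lines of a genotype came from separate mice, so such p-values measure the spread between these lists.

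**Figure D1:**
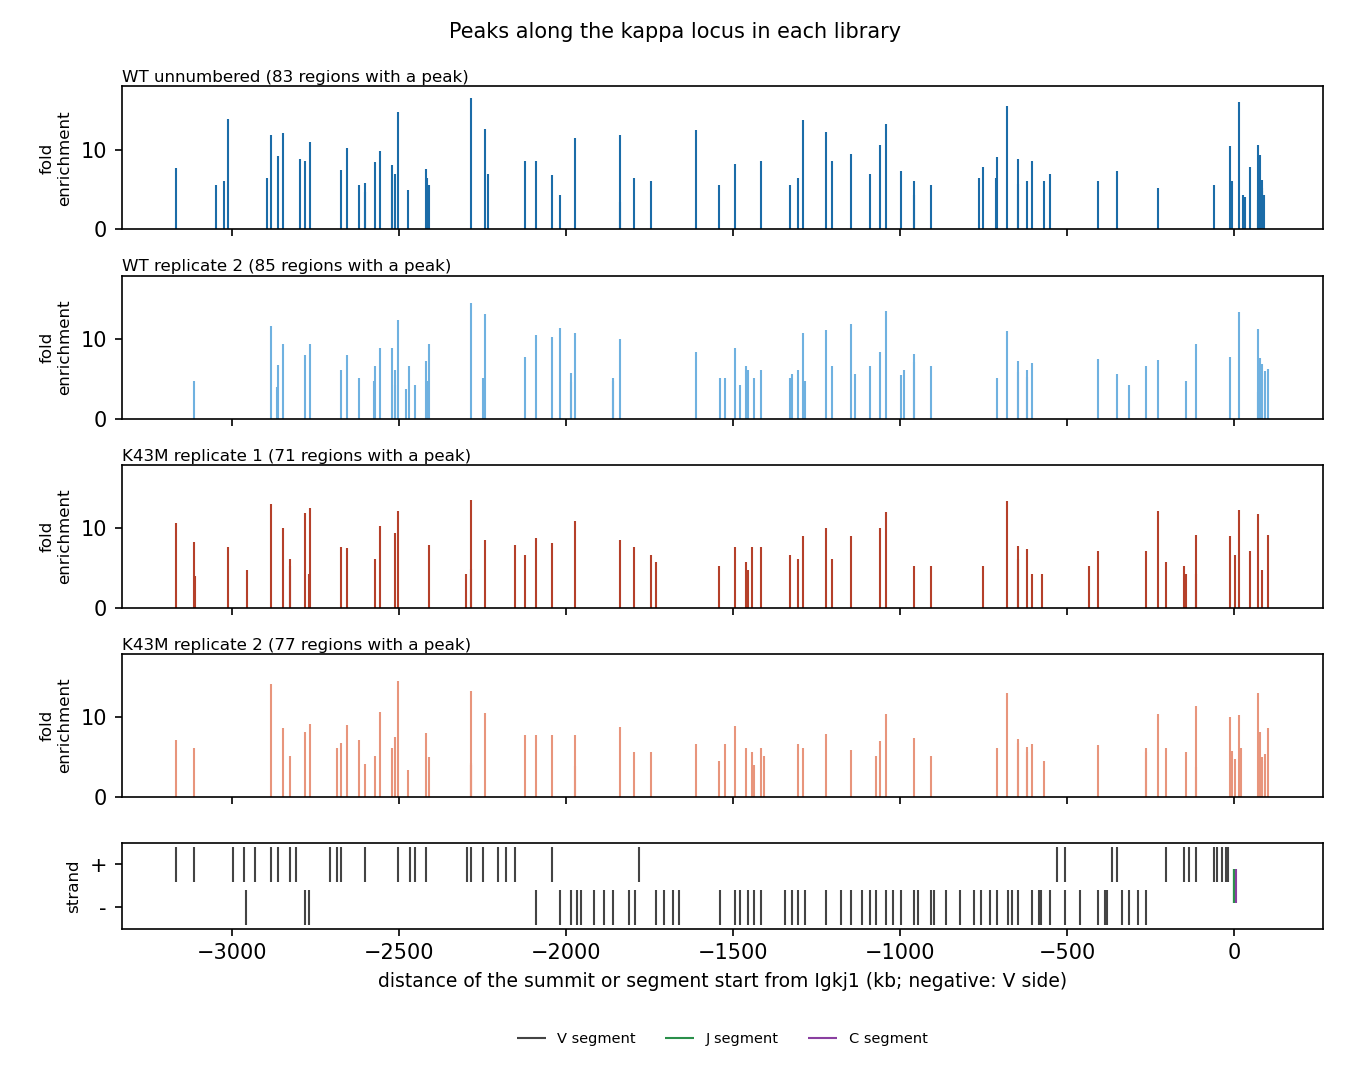
Peaks along the kappa locus in the 4 libraries, with distance from Igkj1 in kb on the horizontal axis and fold enrichment on the vertical axis, 1 line per region. The lowest panel gives the V segments on the plus and minus strand and the J and C segments. Peaks lie along the whole V part in each library, and no peak stands on the J cluster itself.

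Kappa was dense in open regions, and these varied between lists. There were 40.3 regions per Mb at kappa and 37.6 at lambda, against 18.7 over the genome. A peak in all 4 lists was found at 38 of the 136 kappa regions (27.9%), against 41.2% of all regions. A peak in a single list was found at 51 kappa regions (37.5%), against 14618 of the 50965 regions of the genome. At lambda 10 of 15 regions had a peak in all 4 lists. A peak shared by the wildtype pair and absent from the K43M pair marked 10 kappa regions and 0 lambda regions, with 4.51% of all regions as background. The opposite pattern marked 6 kappa regions and 1 lambda region, with a background of 7.64%. The overlap of bases between lists (Jaccard index) at kappa was 0.454 for the wildtype pair and 0.528 for the K43M pair, and between 0.420 and 0.470 across genotypes. The wildtype pair thus lay inside the range of the pairs across genotypes. Kappa peaks stood on little background: between 35.4% and 52.7% of them in each list were at the genome-wide minimum, against 8.38% to 13.7% of all peaks.

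No J segment and no constant segment of either locus overlapped a peak in any list. This covered Igkj1 to Igkj5 and Igkc, and Iglj1 to Iglj4 with Iglj3p and Iglc1 to Iglc4. Across the kappa J cluster and in Igkc 100% of the 31-base words occurred once in the genome. At lambda the share within 200 bp of the segment start was lower in part, with 55.6% at Iglc2, 61.8% at Iglj2 and 84.5% at Iglc3, so that a peak there would be harder to see. On the V side of the J cluster, in the interval of Cer and Sis, chr6:70709161-70710014 was open in every list. Its fold enrichment was 10.5 and 7.73 in the wildtype lists and 9.02 and 10.0 in the K43M lists. The groups overlapped, and the log2 difference of K43M minus WT was 0.08 ± 0.18 (SE; limma, adjusted p = 0.921). A second region of the interval, nearer to Igkj1 at chr6:70714334-70714623, had a peak of 6.05 in WT unnumbered and 5.74 in K43M replicate 2, and none in the other lists.

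The intron between the J cluster and Igkc was open in the K43M pair and in no wildtype list. The region, chr6:70725681-70726030, had its summit at -1207 bp from the end of Igkc and lay in an intron of the non-coding gene Gm30211. Fold enrichment reached 6.66 and 4.76 in the K43M lists, with 13 read ends at the summit in each. Ranked by q-value, these peaks stood above 34.7% and 15.3% of the peaks of their lists. The kappaB letters stood within 100 bp of the summit, which held for 0.269% of all regions and for no other kappa region. The pattern held with peaks of −log10 q of at least 5 and with equal list lengths. Since 7.64% of all regions had this pattern, it is reported as a value and not as a difference particular to this enhancer.

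The 3′ enhancer interval held the highest peak of the enhancer side, at chr6:70735520-70736011 with its summit 8724 bp past Igkc. Fold enrichment was 16.1 and 13.5 in the wildtype lists, against 12.3 and 10.2 in the K43M lists. Both K43M values lay below both wildtype values. The log2 difference was -0.39 ± 0.13 (SE) and did not pass the test across all regions (limma, adjusted p = 0.224). The interval of the distal enhancer had a peak in K43M replicate 2 alone, chr6:70743968-70744316, with a fold enrichment of 6.10 and its summit 17180 bp past Igkc.

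**Figure D2:**
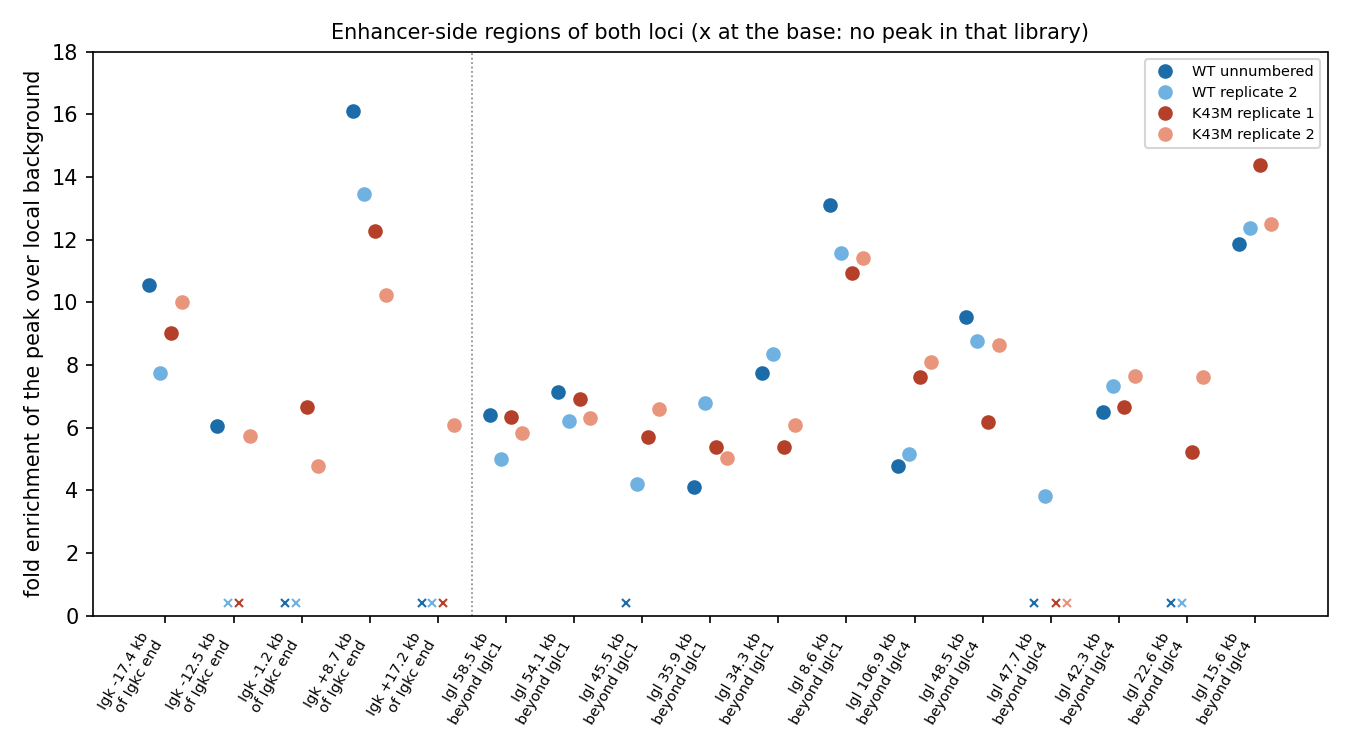
Fold enrichment of each enhancer-side region in the 4 libraries, kappa left of the dotted line and lambda right of it, labelled by distance from the constant segment in kb. A cross at the base marks a library without a peak. The region 8724 bp past Igkc is the highest at kappa, with values from 10.2 to 16.1, and the J to C intron has points in the K43M libraries only.

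V promoters, taken as 2000 bp before to 200 bp after an annotated start, were open at 18 and 24 of the 100 kappa V segments in the wildtype lists, and at 22 and 20 in the K43M lists. The genotype means did not differ (difference 0, exact permutation test, p = 1). In at least 1 list 35 segments had a promoter peak, and 65 had none. A peak in all 4 lists was present for 11 of the 100, against 47.6% of protein-coding genes. One segment was strictly WT-only and 1 strictly K43M-only, with backgrounds of 0.515% and 2.00% of protein-coding genes. By position along the locus, a promoter peak in any list was present for 14 of the 26 segments farthest from J, 10 of the 32 in the middle and 11 of the 42 nearest to J, in stretches of equal length. A peak that overlaps the window can have its summit at the end of the segment. Of the 38 regions placed at kappa V promoters, 11 had the summit more than 200 bp past the start. In the middle stretch only 2 segments had a region with its summit within 200 bp of the start, and 19 had one at the end. None of the 3 lambda V segments had a promoter peak in any list. As a guide to what could be seen, the median share of unique 31-base words was 72.5% in kappa promoter windows with a peak and 64.9% in those without.

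The segments open in all lists were led by the Igkv9 family, of which all 4 members were open. Igkv9-129 had a fold enrichment of 11.9 and 11.6 in the wildtype lists and 13.0 and 14.2 in the K43M lists. Igkv9-124 had 8.67, 7.96, 11.9 and 8.13 over the 4 lists. Igkv9-123 had 11.0, 9.37, 12.6 and 9.13 in that order, and Igkv9-120 had 7.42, 6.09, 7.61 and 6.82. For Igkv9-129 alone of these the K43M values lay above both wildtype values, and its log2 difference was 0.21 ± 0.12 (SE; limma, adjusted p = 0.524).

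The highest V promoter peaks belonged to segments that are alone or few in their families. Igkv15-103, the sole Igkv15 segment, had a fold enrichment of 16.6 and 14.6 in the wildtype lists and 13.6 and 13.3 in the K43M lists (log2 difference -0.21 ± 0.11, SE; limma, adjusted p = 0.470). Igkv2-112 had 14.8, 12.3, 12.2 and 14.6 in that order. Further segments open in all lists were Igkv10-96 (6.67, 10.5, 7.08 and 5.26), Igkv10-95 (6.91, 10.2, 5.23 and 7.79) and Igkv4-58 (12.2, 11.2, 10.0 and 7.95). Among the 42 segments nearest to J these were Igkv12-46 (6.07, 7.08, 5.23 and 7.43) and Igkv6-32 (5.74, 7.27, 7.81 and 7.33). These values are the highest peak that overlaps the promoter window, and its summit can lie outside the window. At Igkv4-58 all 4 summits lay within 200 bp of the end. At Igkv10-96 the value of WT replicate 2 came from a peak with its summit at the end and the others from peaks at the start. At Igkv10-95 only the 5.23 of K43M replicate 1 came from a peak at the start. Both K43M values lay below both wildtype values for Igkv15-103 and Igkv4-58 and above them for Igkv6-32, and the genotypes overlapped for the other 4. How often the genotypes lie apart in this way over all regions was not counted.

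Promoter peaks with the genotype pattern were low. Igkv6-17 had 7.37 and 5.62 in the wildtype lists and no peak in the K43M lists. Igkv3-12 had 5.71 and 6.10 in the K43M lists and no peak in the wildtype lists. Of the other segments with a promoter peak, the 5 with the highest value in any list were Igkv3-7 with up to 11.5, Igkv2-137 with up to 10.7, Igkv1-35 with up to 9.16, Igkv1-135 with up to 8.33 and Igkv2-109 with up to 8.05. Each of these 5 had a peak in 3 lists. Igkv3-7 and Igkv1-135 lacked one in WT unnumbered, Igkv2-137 in WT replicate 2, and Igkv1-35 and Igkv2-109 in K43M replicate 1.

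Where the summits lay within the V segments separated the open regions into groups at the start and at the end. This grouping, within 200 bp of an annotated V start or V end with pseudogenes included, was chosen after the positions were seen. At a V start lay 31 kappa regions, 26 of them at member segments, with a median summit position of -78 bp. At a V end lay 41 regions, 37 of them at member segments, with a median of 36 bp past the end, where the RSS stands. The remaining 64 lay elsewhere. Of the member segments 52 had a region at either place, 11 had both and 48 had neither. A merged region has 1 summit, and when single peaks were counted instead, 28 member segments were open at the start and 37 at the end, the added starts being those of Igkv10-96 and Igkv10-95. A peak in all 4 lists was present at 12 of the 31 start regions (38.7%) and 13 of the 41 end regions (31.7%). By list, start regions with a peak numbered 19 and 22 in the wildtype lists and 22 and 19 in the K43M lists. End regions with a peak numbered 22 and 30 in the wildtype lists and 19 and 22 in the K43M lists, so that the groups met at 22.

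**Figure D3:**
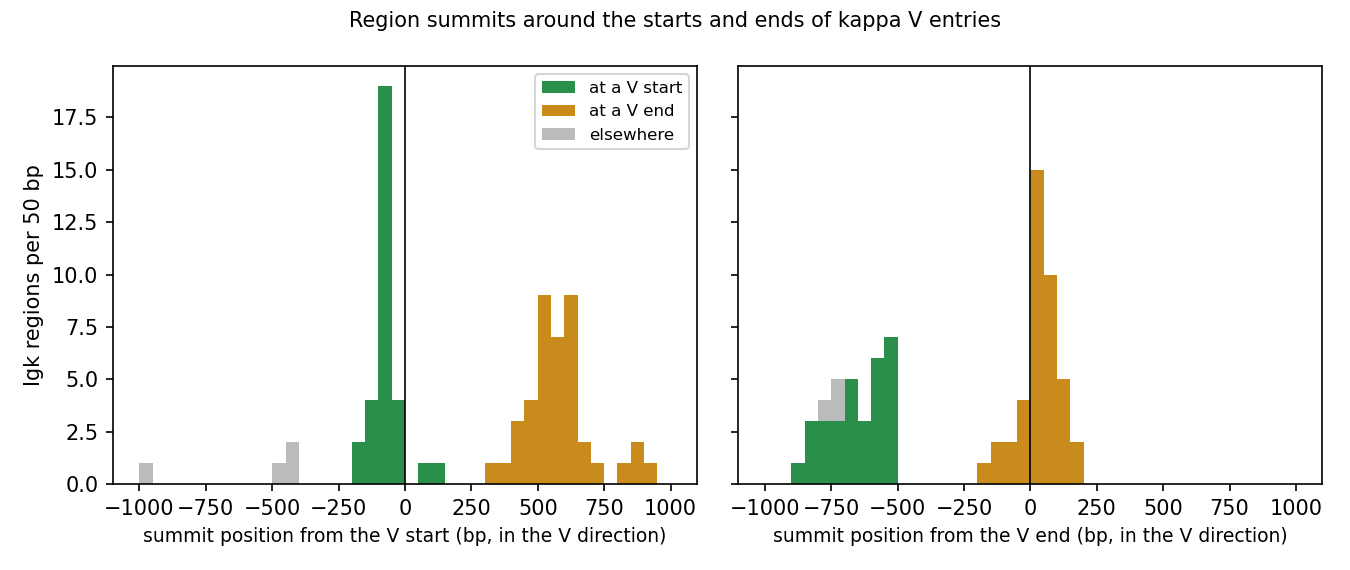
Number of kappa regions per 50 bp by the position of their summit from the start (left) and the end (right) of the V entry they were assigned to, in bp along the V direction. Green regions lie within 200 bp of a start, with a median of -78 bp, and ochre regions within 200 bp of an end, with a median of 36 bp.

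The letters under the summits differed between starts and ends. The octamer was found within 100 bp of the summit in 24 of 31 start regions (77.4%) and 8 of 41 end regions (19.5%), against 2.12% of all regions of the genome. The E-box was found in 13 start regions (41.9%) and 2 end regions (4.88%), against 16.2% of all regions. The RSS heptamer was found in 27 end regions (65.9%) and no start region, and the nonamer in 14 end regions (34.1%), against 7.07% and 0.297% of all regions. The heptamer at an end is fixed by position, since it directly followed the last base of 84 of the 100 segments. In windows from 250 bp before to 50 bp after the start the octamer was present in 73 of 100 kappa segments and 3 of 3 lambda segments, against 1.57% of protein-coding genes. It was present in 28 of the 35 segments with a promoter peak and in 45 of the 65 without one. The octamer at a start thus also goes largely with position, whether or not a peak was called.

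Families differed in which end was open. In the Igkv4 family, the largest with 26 segments, none had a region at the start and 15 had one at the end, also by single peaks, although all 26 held the octamer in the promoter window. The Igkv9 family had regions at all 4 starts and 1 end, and the Igkv2 family at all 3 starts and no end. Igkv1 had 5 starts and 5 ends among 10 segments, Igkv3 had 4 starts and 1 end among 9, and Igkv8 had no start and 3 ends among 10. Of the 26 segments farthest from J, 14 were open at the start and 8 at the end, against 2 and 19 of the 32 in the middle, where most of the Igkv4 family lies, and 10 and 10 of the 42 nearest to J. The median share of unique 31-base words in the Igkv4 family was 44.6% within 200 bp of the start and 45.6% within 200 bp of the end. Single segments differed in this share between start and end, and why the family was open at its ends was not tested.

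The ends of the Igkv4 segments carried a further octamer. Within 300 bp past the end it was found in 17 of the 26 segments and in no kappa V segment of another family. It stood between 120 and 132 bp past the end, and in 13 segments at 128 bp. A region at the end was present in 13 of the 17 segments with this octamer and in 2 of the 9 without it. The median share of unique words at the end was 35.7% in the former and 73.1% in the latter. These segments share sequence and are not independent, and no test was made.

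End regions of the Igkv4 family in all 4 lists were those at Igkv4-72, Igkv4-68, Igkv4-61, Igkv4-58, Igkv4-57 and Igkv4-51. Igkv4-51 had the highest, with 13.2 and 13.6 in the wildtype lists and 12.1 and 10.4 in the K43M lists. Both K43M values lay below both wildtype values (log2 difference -0.25 ± 0.12, SE; limma, adjusted p = 0.411). At Igkv4-57 the values were 9.51 and 11.9 in the wildtype lists and 9.04 and 5.94 in the K43M lists (log2 difference -0.53 ± 0.20, SE; limma, adjusted p = 0.297). At Igkv4-72 they were 8.24, 8.90, 7.61 and 8.91, and the groups overlapped.

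**Figure D4:**
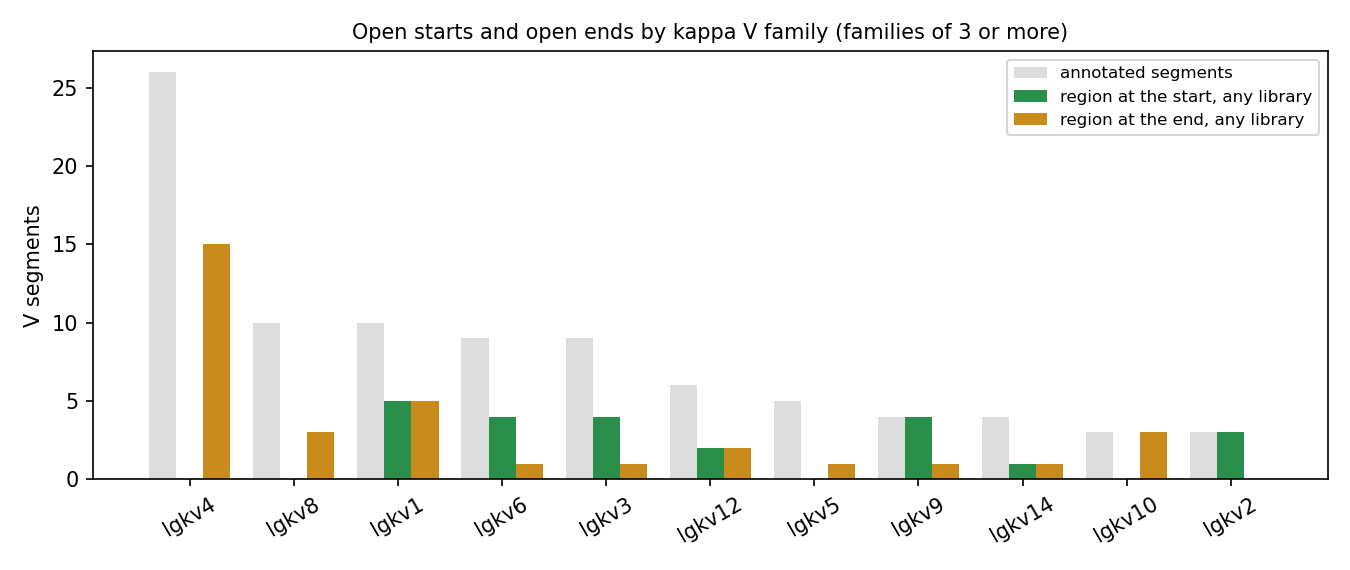
Kappa V families of 3 or more segments, with the number of annotated segments (grey), of segments with a region at the start in any library (green) and at the end in any library (ochre). Each merged region counts once, at its highest summit. Igkv4 has 26 segments, no open start and 15 open ends, and Igkv9 has 4 open starts and 1 open end among 4 segments.

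Regions between the first and last segment with the pattern of 1 genotype were spread over V starts, V ends and the space between. Shared by the wildtype pair alone were the end regions of Igkv17-127 (9.23 and 6.70), Igkv10-94 (4.34 and 11.3), Igkv4-54 (6.94 and 6.56), Igkv5-48 (7.37 and 5.50) and Igkv12-46 (4.34 and 8.11). The same held for chr6:68200416-68200777 (8.05 and 8.84) and chr6:68305285-68305641 (6.50 and 4.78), besides the start of Igkv6-17. Shared by the K43M pair alone were the end regions of Igkv14-126 (5.23 and 5.08) and Igkv3-7 (4.19 and 3.82), and chr6:68438903-68439183 (4.91 and 4.21) and chr6:69277829-69278084 (7.61 and 5.59), besides the start of Igkv3-12 and the J to C intron. With peaks of −log10 q of at least 5, 8 of the 10 WT-only and 3 of the 6 K43M-only kappa regions kept their pattern. With equal list lengths, all 10 and 4 of the 6 did.

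V pseudogenes were open too. Beside the regions at V segments, their promoter windows held 11 kappa regions, of which 8 had a peak in all 4 lists. This compares with 12 of the 38 regions at V promoters and 41.2% of all regions. Only 5 of the 11 had their summit within 200 bp of a pseudogene start. Of the kappa regions that were neither V promoters nor enhancer-side, the highest by the median over lists was chr6:70040643-70041477, with its summit at -410 bp from the start of the V pseudogene Gm43586. It had a fold enrichment of 15.5, 11.0, 13.5 and 13.0 over the 4 lists. The others of the 5 highest were the end of Igkv4-51, the end of the pseudogene Igkv15-101 at chr6:68480914-68481653 (12.6, 13.2, 8.56 and 10.6), an exon of the flanking gene Rpia at chr6:70791338-70792498 (10.6, 11.2, 11.8 and 13.0) and chr6:68750393-68750984 (11.5, 10.7, 10.9 and 7.84). Rpia encodes an enzyme of the pentose phosphate pathway. At Igkv15-101 both K43M values lay below both wildtype values (log2 difference -0.44 ± 0.15, SE; limma, adjusted p = 0.262), and at Rpia both lay above (0.19 ± 0.13, SE; limma, adjusted p = 0.630).

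At lambda the open regions lay beyond the constant segments and upstream of the V segments. Distances beyond a constant segment are given downstream in the direction of the locus, which lies on the minus strand. The region 15557 bp beyond Iglc4, chr16:19179038-19180018, had a fold enrichment of 11.8 and 12.4 in the wildtype lists and 14.4 and 12.5 in the K43M lists. The region 8619 bp beyond Iglc1, chr16:19052696-19053219, had 13.1 and 11.6 in the wildtype lists and 10.9 and 11.4 in the K43M lists. The former was higher in K43M by a log2 difference of 0.15 ± 0.11 (SE; limma, adjusted p = 0.665) and the latter lower by -0.14 ± 0.13 (SE; limma, adjusted p = 0.735). In neither did the genotypes overlap, and neither passed the test.

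Further regions beyond Iglc1 were lower. At 34285 bp, chr16:19027113-19027501 had 7.74 and 8.33 in the wildtype lists and 5.38 and 6.07 in the K43M lists, which did not overlap (log2 difference -0.49 ± 0.20, SE; limma, adjusted p = 0.355). At 35891 bp, chr16:19025561-19025837 had 4.12, 6.79, 5.38 and 5.03 over the 4 lists. Farther out, chr16:19007267-19007668 had 7.14, 6.22, 6.91 and 6.29 in that order, and chr16:19002709-19003490 had 6.40, 5.0, 6.33 and 5.84. A region at chr16:19016044-19016405 had 4.22, 5.71 and 6.61 and no peak in WT unnumbered. In these 4 the genotypes overlapped or a list had no peak.

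In the interval toward Iglc4, chr16:19172238-19172516 had peaks of 5.23 and 7.62 in the K43M lists and none in the wildtype lists. It lay 22602 bp beyond Iglc4. Its pattern held with peaks of −log10 q of at least 5 and was lost with equal list lengths, when K43M replicate 1 had no peak there. Regions at chr16:19146202-19147079 (9.54, 8.77, 6.18 and 8.64) and chr16:19152488-19153130 (6.50, 7.33, 6.66 and 7.66) were in all 4 lists. WT replicate 2 alone had a peak of 3.81 at chr16:19147120-19147319.

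Iglv1 and Iglv2 each had a region in all 4 lists just outside the promoter window. Upstream of Iglv1, chr16:19087977-19088265 had its summit at -2571 bp, with 4.77 and 5.15 in the wildtype lists and 7.61 and 8.08 in the K43M lists. The groups did not overlap, and the log2 difference was 0.66 ± 0.20 (SE; limma, adjusted p = 0.207). Upstream of Iglv2, chr16:19263055-19263681 had its summit at -2561 bp, with 8.24, 9.66, 9.51 and 7.58 over the 4 lists. Here the groups overlapped. The region nearest upstream of Iglv3, chr16:19245842-19246167 at -4317 bp, had a peak of 7.69 in WT replicate 2 and 6.31 in K43M replicate 2. Within 100 bp of their summits all 3 held the STAT letters TTCNNNGAA, which 6.79% of all regions held. The letters were not particular to these regions, since 5 of the 15 lambda regions held them. Among those were chr16:19146202-19147079 and chr16:19025561-19025837, beyond the constant segments. K43M replicate 1 alone had a peak of 5.23 at chr16:19211006-19211379.

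The height of the peaks was compared where all lists had one, by limma on log2 fold enrichment with 1 fit across 21012 regions of the genome. The 48 light chain regions tested gave no call in either direction, against 0.0619% of all regions called higher and 0.0476% called lower in K43M. At an unadjusted p under 0.05 there were 9 (2 higher and 7 lower), which is 18.8% against 12.2% of all regions (1354 higher and 1217 lower). The lowest adjusted p of limma was 0.102. The median log2 difference was -0.15 over the 38 kappa regions and -0.02 over the 10 lambda regions, against 0.00 over all regions. At kappa 25 were lower and 13 higher in K43M, against 10456 lower and 10556 higher over all regions. Depth was lower in both K43M lists, and more kappa peaks than other peaks stood at the genome-wide minimum of background. Depth and genotype therefore cannot be told apart in these kappa values, and centring the lists does not settle it. By position, the 12 V start regions had a median of 0.03, with 6 higher and 6 lower, and the 13 V end regions a median of -0.21, with 2 higher and 11 lower. The 13 regions elsewhere had a median of -0.19, with 5 higher and 8 lower. None was called, and the difference between these classes was not tested.

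The region with the lowest adjusted p was chr6:70493742-70494269, with its summit at -424 bp from the start of the V pseudogene Gm42720 and named here after its values were seen. It had 5.20 and 7.32 in the wildtype lists and 12.2 and 10.4 in the K43M lists, which did not overlap. The log2 difference was 0.87 ± 0.20 (SE; limma, adjusted p = 0.102). The largest difference in the other direction, also named after its values were seen, was at chr6:69432186-69432882, between Igkv4 segments, with 13.8 and 10.8 in the wildtype lists and 9.04 and 6.10 in the K43M lists (log2 difference -0.71 ± 0.19, SE; limma, adjusted p = 0.146). Without WT replicate 2 limma called both, as it called 449 of 22433 regions of the genome. That fit leaves 1 wildtype list, takes its spread from the K43M pair alone and assumes that the lone list varies alike.

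**Figure D5:**
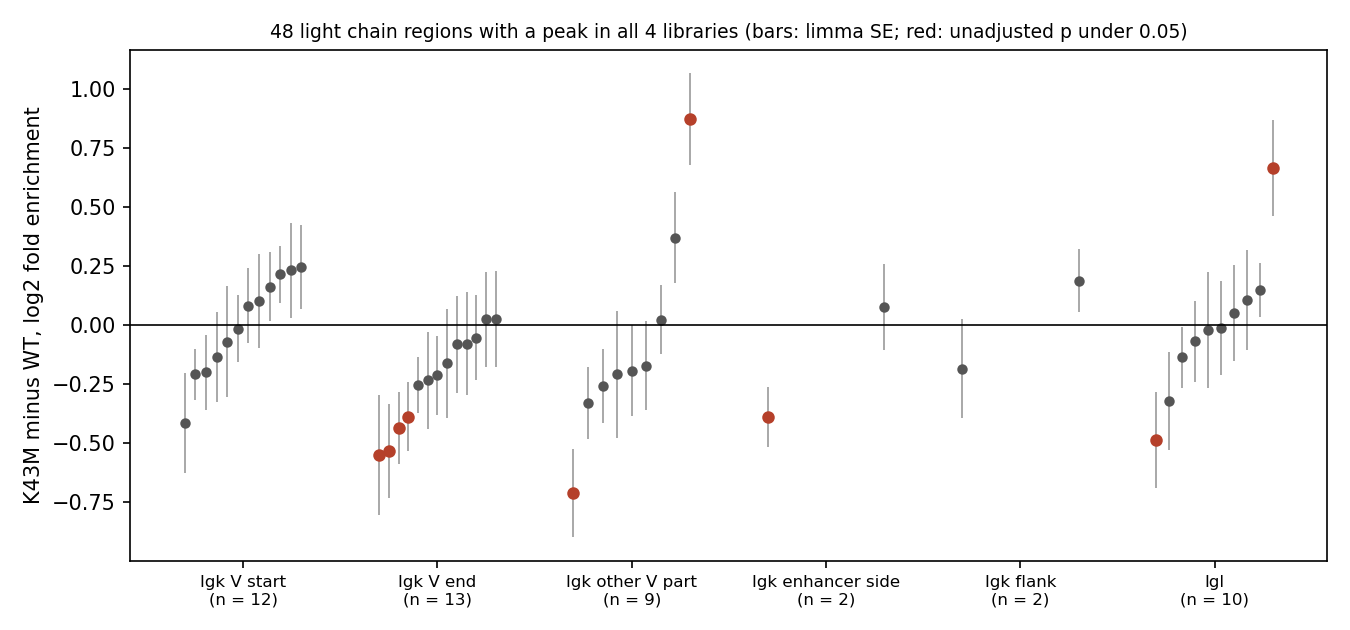
K43M minus WT difference in log2 fold enrichment for the 48 light chain regions with a peak in all 4 libraries, grouped by position, 1 point per region with its limma standard error. Red points have an unadjusted p under 0.05. V end regions lie mostly below 0, V start regions and other V regions lie on both sides of it, and no region passed the adjusted test.

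Genes that act on these loci were read from a list of 33. A promoter peak was present in all 4 lists for 26 of them, beside 47.6% of all protein-coding genes. The surrogate light chain genes, whose products pair with the heavy chain before a light chain exists, were among them: Igll1 had a fold enrichment of 6.43, 7.55, 7.07 and 7.13, and Vpreb1 had 5.93, 5.74, 7.01 and 6.10, over the 4 lists. Vpreb2, a close copy of Vpreb1, also had a peak in all lists, so that reads shared by the copies leave both values uncertain. The related gene Vpreb3 had none. Dntt, which adds bases at the joined ends, and Brwd1, a chromatin reader, had no promoter peak in any list either.

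The recombinase genes were open unevenly. Rag1 had promoter values of 6.41, 5.71 and 6.21 and no peak in K43M replicate 2, and Rag2 had 4.55, 7.22 and 5.03 and no peak in WT replicate 2. Ikzf1, which encodes the lymphoid factor IKAROS, had a promoter peak in the K43M lists only (5.50 and 3.09), as did 2.00% of all protein-coding genes. The genes of the octamer factors Pou2f1, Pou2f2 and Pou2af1 and of the enhancer factors Irf4, Spi1, Rela and Nfkb1 were open in every list. Irf4 had 8.73, 10.3, 7.99 and 7.47, and Spi1, which encodes PU.1, had 7.77, 9.86, 8.24 and 9.72, over the 4 lists. Il7r, the receptor whose signal acts through STAT5 before light chain rearrangement, had 9.13, 7.18, 9.52 and 6.49. For Irf4 both K43M values lay below both wildtype values, and for Spi1 and Il7r the groups overlapped. These promoters were not tested one by one.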

How the data were processed

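ATAC-seq libraries of 4 lines were processed by the authors with Trimmomatic 0.36, BWA 0.7.15 and SAMtools 1.3.1 against mm10, with reads in blacklisted regions and reads of several positions removed. The authors called peaks in each library with MACS2 2.1.0, with no control named. The deposited lists give each peak a fold enrichment ratio over the local background. They also hold −log10 of the p-value and of the q-value, both deposited by the authors as MACS2 wrote them. Read totals are not given in the sources used here. The summit pileup and the local background were recovered from the deposited ratio and −log10 p-value for 100% of peaks, which sets the depth scale.

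Members and gene lists were chosen with earlier results of these data known. Regions, motifs and V promoters were placed with GENCODE release 21 and GRCm38. The 3′ enhancer interval was set as up to 12 kb past Igkc and the distal interval as 12 to 20 kb, from general knowledge of the locus. Named were all J, C and enhancer-side regions, V segments open in all lists or in both lists of 1 genotype, the 5 highest others, and the 5 highest other regions per locus (3 remained at lambda). Every region with the pattern of 1 genotype between the outermost segments, and the pathway genes, were named too. Counts per list were compared by a two-sided exact permutation test over 6 assignments. Fold enrichment was compared as log2 values, centred per list, with limma 3.58.1 in R 4.3.3 (Benjamini-Hochberg over 21012 regions). The merging and limma steps were tested on simulated data. Uniqueness is the share of 31-base words that occur once in GRCm38. A promoter peak's value is that of the highest peak overlapping the window. All sequences were read from the GRCm38 assembly of RefSeq. Alternatives were other thresholds, windows and overlaps, equal list lengths and leaving out each list.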

Additional observations from a re-analysis of the deposited data

How the results depend on the processing

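The difference in kappa peaks stayed negative under every alternative, from -19 with equal list lengths to -6 without flanks, and from -11.5 to -6.5 when 1 list was left out. Of the alternative values, 72 kept their direction or count (within 1.5 times) and 23 did not. The difference in V promoter peaks, 0 with all lists, became 2 with −log10 q of at least 5, -1 with equal list lengths and -4.5 with a window of 500 bp on either side (28, 38, 28 and 29 segments). It was -3 without WT unnumbered, 3 without WT replicate 2, and -1 to 1 without either K43M list. Leaving out a list makes the pattern of 1 genotype easier to meet. Kappa WT-only regions then numbered 28 without WT unnumbered, 25 without WT replicate 2, and 12 and 16 without K43M replicate 1 and 2. K43M-only regions numbered 10, 13, 14 and 16 in that order. At lambda the difference in peaks was 0 without WT unnumbered and 1 to 2 without another list, WT-only regions ran from 0 to 1 and K43M-only regions from 1 to 2. With −log10 q of at least 5 the lambda difference in peaks was 4, without overlap of the genotypes, and K43M-only regions were 3, and regions in all lists were 4 without flanks. Limma called 1 region lower with the recovered pileup (the Igkv15-101 end, adjusted p = 0.0403), where 934 of 21012 regions of the genome were called. It called 1 higher and 1 lower without WT replicate 2, where 449 of 22433 were called, against 0 and 0 without any other list and 23 regions of the genome with all lists. A fit without a list assumes that the lone list of that genotype varies like the pair of the other. Counting single peaks, an alternative chosen after seeing the data, gave 28 open V starts in place of 26 and 37 open ends as before. The cause of these changes was not tested. No paired analysis was made, because the labels do not pair a line of 1 genotype with a line of the other. At the genome-wide background, depth limits the comparison to peaks above 3.28 to 3.56 times that background.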
